A study of Homo sapiens with 2 samples.

Results

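The transglutaminase family was described here in RNA sequencing of HK-2 cells, an established epithelial line made from the proximal tubule of a normal human kidney. The 8 members, TGM1 to TGM7 and F13A1, were found by matching their symbols to Ensembl gene identifiers, out of 58302 identifiers in the count tables. The family was selected on the counts of TGM2, a very abundant gene that was lower in Ad-Bmal1 than in Ad-GFP. The values of that contrast below are therefore a description with no test. Of the 8 members 4 reached 1 CPM (a count scaled to library size) in at least 1 library, and the other 4 had no count in either library.

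By its label, the library labelled Ad-Bmal1 came from cells infected for 24 h with an adenovirus that carried the coding sequence of the clock transcription factor Bmal1. The library labelled Ad-GFP is given as cells infected for the same time with an adenovirus that carried green fluorescent protein. Both had grown in medium with 10% fetal bovine serum and are given as passages 7 to 11, and no uninfected library is among the samples. The labels spell out the name of the line differently for the libraries, and both were taken as HK-2. Each group has 1 library, so every difference is between 2 libraries and has no replicate check on the conditions they stand for.

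Sequencing depth was even: the library labelled Ad-Bmal1 held 20051735 counts and the library labelled Ad-GFP 20032652. BMAL1, the targeted gene, had 133 counts in the library labelled Ad-Bmal1 and 204 in the library labelled Ad-GFP, a ratio of 0.667 (95% counting interval 0.532 to 0.834). The targeted gene thus went against its label. BMAL1 was also not abundant in either library. It was at 6.71 CPM in the library labelled Ad-Bmal1, 9083rd by count, and at 10.1 CPM in the library labelled Ad-GFP, 8124th. What infected each culture is known here from the labels alone, which do not give the species of the Bmal1 sequence, and an exchange of the labels would turn every direction below. Whether they were exchanged was not tested. Of 6 epithelial markers, mostly keratins, 5 were measured. CDH1 was not, with 4 counts in the library labelled Ad-Bmal1 and 1 in the library labelled Ad-GFP. Of 12 proximal tubule markers 2 were measured (PAX8 and GGT1), and 3, the transport genes LRP2, SLC22A6 and SLC22A8, were at 0 in both libraries.

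Transglutaminases are calcium-dependent enzymes that join glutamine side chains of a protein to lysine side chains or to small amines such as polyamines, and so tie proteins together by bonds that ordinary proteases do not cut. TGM2, the tissue enzyme, also binds GTP and works as a signalling G protein, and outside the cell it associates with fibronectin and integrins. In the kidney it is known for leaving tubular epithelial cells and crosslinking the matrix in scarring. The other members serve particular tissues: TGM1, TGM3 and TGM5 the skin and hair, TGM4 the prostate, TGM6 neurons, and F13A1 encodes the A subunit of the clotting enzyme factor XIII.

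The codon of the active-site cysteine and the bases around it are shown for the 4 detected members and for EPB42. EPB42 is band 4.2 of the red cell membrane, a family protein without enzyme activity. The lines show how the transcripts compare at this site only. Each line gives 45 bases, 5′ to 3′ on the transcript, with the active-site codon, or in EPB42 the codon at the same place, in capitals. The sequences are from GENCODE v29 transcripts on GRCh38.
TGM2: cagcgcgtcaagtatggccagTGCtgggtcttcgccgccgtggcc
TGM1: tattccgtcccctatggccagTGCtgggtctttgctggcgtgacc
TGM4: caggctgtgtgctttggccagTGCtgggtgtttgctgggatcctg
TGM5: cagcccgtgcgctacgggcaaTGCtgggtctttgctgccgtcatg
EPB42: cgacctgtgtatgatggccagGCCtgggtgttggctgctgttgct

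The TGM2 stretch lies in exon 6 of 13 of the transcript TGM2-201, at chr20:38146724-38146768 on the minus strand, and is coding. Those of the others are coding too, at chr14:24259082-24259126 on the minus strand in exon 7 of TGM1, chr3:44901647-44901691 on the plus strand in exon 7 of TGM4, chr15:43252766-43252810 on the minus strand in exon 6 of TGM5 and chr15:43209281-43209325 on the minus strand in exon 6 of EPB42. Of these 45 bases TGM1 shared 34 with TGM2, TGM5 31, EPB42 29 and TGM4 27. Over the whole aligned coding sequence the identity to TGM2 was 63.0% for TGM1, 60.9% for TGM4 and 63.9% for TGM5. No run of 31 bases of the TGM2 transcript occurred in another of the 8 members, so reads that match exactly over such a run could not be split between them.

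TGM2 (ENSG00000198959, chromosome 20, 38127387 to 38166578, minus strand) had 12889 counts in the library labelled Ad-Bmal1 and 32779 in the library labelled Ad-GFP. These were 651 CPM (counting interval 639 to 662) in the library labelled Ad-Bmal1 and 1617 CPM (1599 to 1634) in the library labelled Ad-GFP. The intervals did not overlap, and TGM2 was lower by 2.49-fold in the library labelled Ad-Bmal1 (ratio 0.402, interval 0.394 to 0.411). TGM2 ranked 226th by count in the library labelled Ad-Bmal1 and 62nd in the library labelled Ad-GFP. It took 6.43 of every 10000 counts in the library labelled Ad-Bmal1 and 16.4 in the library labelled Ad-GFP. In bulk RNA a smaller number of cells that express a gene and less RNA per cell cannot be told apart.

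Intervals cover counting error only, since 1 library per group gives no spread between cultures or preparations. They may be too narrow even for counting error, because amplified reads that carry no molecular identifier are not separate molecules. Genes were called by size: at least 1 CPM in at least 1 library, at least 2-fold different, and an interval that excluded 1. By this rule 1 of the 4 measured members, TGM2, was lower in the library labelled Ad-Bmal1, against 1.74% of all 13231 measured genes, and none was higher, against 1.13%. TGM2 was the reason for the choice of the family, so nothing is read from this count.

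The keratinocyte enzyme gene TGM1 (ENSG00000092295, chromosome 14, 24249114 to 24264432) had 23 counts in the library labelled Ad-Bmal1 and 38 in the library labelled Ad-GFP. Its ratio was 0.619, with an interval of 0.352 to 1.07 that held both 1 and the ratio of TGM2. TGM4 (ENSG00000163810, chromosome 3, 44874608 to 44914990), the prostate enzyme that acts in seminal fluid clotting in rodents, had 21 counts in the library labelled Ad-Bmal1 and 25 in the library labelled Ad-GFP. TGM4 had a ratio of 0.859 (0.458 to 1.60), and this interval lay above that of TGM2. TGM5 (ENSG00000104055, chromosome 15, 43232595 to 43266857), whose loss causes a peeling skin disease, had 33 counts in the library labelled Ad-Bmal1 and 27 in the library labelled Ad-GFP. TGM5 went the other way in these libraries, with a ratio of 1.25 (0.729 to 2.16) that held 1 and also lay above the interval of TGM2.

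The other 7 members together had 77 counts in the library labelled Ad-Bmal1 and 90 in the library labelled Ad-GFP, a ratio of 0.875 (0.637 to 1.20). At such counts a difference of the size seen in TGM2 could not be set apart from none in TGM1. TGM3, TGM6, TGM7 and F13A1 had 0 counts in both libraries, which allows up to 0.151 CPM in the library labelled Ad-Bmal1 and 0.148 CPM in the library labelled Ad-GFP (3 counts each). EPB42 also had 0 counts in both. TGM3 and TGM6 lie on chromosome 20 (2296001 to 2341078 and 2380908 to 2432753), TGM7 on chromosome 15 (43276280 to 43302255) beside TGM5, and F13A1 on chromosome 6 (6144085 to 6321013).

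Levels of different genes were set side by side per transcript length, as TPM (counts divided by the length of the longest coding transcript, then scaled to the library's sum). TGM2 stood at 273 TPM in the library labelled Ad-Bmal1 (interval 268 to 277) and 666 TPM in the library labelled Ad-GFP (659 to 673). TGM1 had 0.888 TPM in the library labelled Ad-Bmal1 and 1.41 TPM in the library labelled Ad-GFP. TGM5 had 1.28 TPM in the library labelled Ad-Bmal1 and 1.00 TPM in the library labelled Ad-GFP, and TGM4 had 0.665 TPM in the library labelled Ad-Bmal1 and 0.760 TPM in the library labelled Ad-GFP. The order below TGM2 was TGM5, TGM1, TGM4 in the library labelled Ad-Bmal1 and TGM1, TGM5, TGM4 in the library labelled Ad-GFP, but neighbours in each order had overlapping intervals.

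TGM2 made up 99.0% of the family's summed TPM in the library labelled Ad-Bmal1 and 99.5% in the library labelled Ad-GFP. Its TPM was 307 times that of TGM1 in the library labelled Ad-Bmal1 (interval 204 to 484) and 472 times in the library labelled Ad-GFP (344 to 668). The members with no count were set at a floor of 3 counts per library. Against that floor TGM2 had at least a 1942-fold higher TPM within the library labelled Ad-Bmal1 and at least a 4939-fold higher TPM within the library labelled Ad-GFP. Both values are for TGM6, the shortest of their transcripts. The counting intervals of these ratios began lower, at 1579 in the library labelled Ad-Bmal1 and 4017 in the library labelled Ad-GFP.

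**Figure D1:**
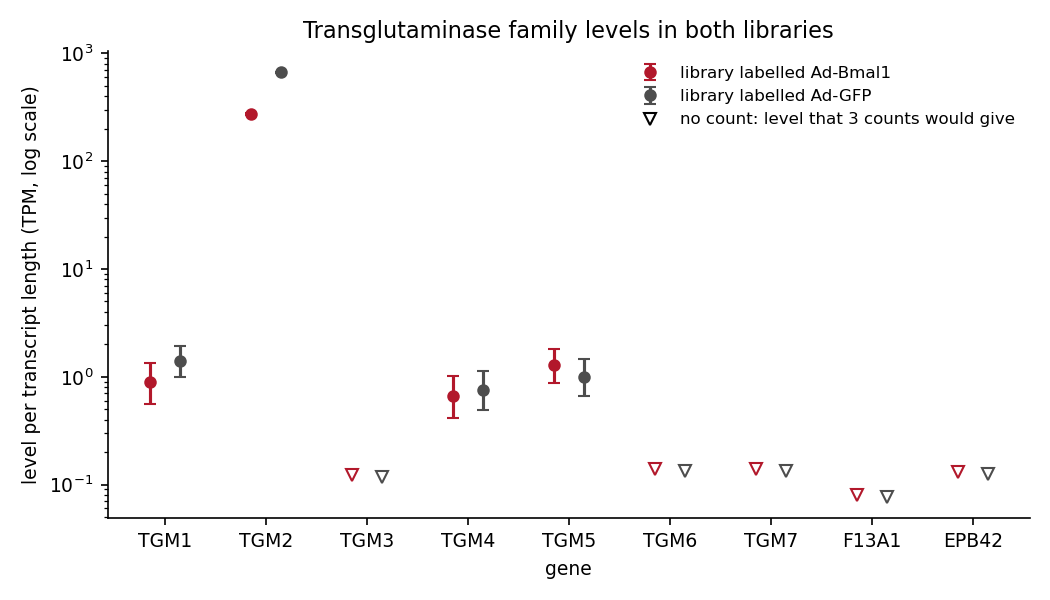
Level per transcript length (TPM, log scale) of each family gene and of EPB42 in the libraries labelled Ad-Bmal1 (red) and Ad-GFP (grey); bars are 95% counting intervals, and open triangles mark the level that 3 counts would give where a gene had none. TGM2 stands at 273 TPM in the library labelled Ad-Bmal1 and 666 TPM in the library labelled Ad-GFP, while TGM1, TGM4 and TGM5 lie between 0.665 and 1.41 TPM with overlapping bars.

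Markers of the cell types known for other members were sparse. Of 6 keratinocyte markers 5 had no count, and KRT10 was the measured one. Of 8 monocyte and platelet markers, the blood cells known for F13A1, 5 had no count and CSF1R and ITGA2B were measured. Endothelial cells and fibroblasts are known to carry much TGM2. The 4 endothelial markers summed to 0.252 CPM in the library labelled Ad-Bmal1 and 0.148 CPM in the library labelled Ad-GFP, with VWF and KDR at 0, and none was measured. The 6 fibroblast markers, 4 of them measured, summed to 101 CPM in the library labelled Ad-Bmal1 and 79.4 CPM in the library labelled Ad-GFP. Most of the sum was COL1A1, at 84.8 CPM in the library labelled Ad-Bmal1 and 63.4 CPM in the library labelled Ad-GFP. DCN went the other way, at 4.59 CPM in the library labelled Ad-Bmal1 and 6.41 CPM in the library labelled Ad-GFP. COL1A2 had 1 count in the library labelled Ad-Bmal1 and 4 in the library labelled Ad-GFP. ACTA2 had 5 in the library labelled Ad-Bmal1 and 4 in the library labelled Ad-GFP. Whether any such cells were present, or had a part in the TGM2 difference, was not tested.

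At the abundance of TGM2 few genes differed as much. The family was chosen because TGM2 was very abundant and lower, so the place of TGM2 here was set by that choice. Among 712 genes with 10000 or more counts over both libraries, 97.1% had ratios within 1.5-fold, 3 were lower by the size rule (0.421%) and 1 was higher (0.14%). Intervals at this depth are narrow, and 36% of the 712 lay wholly below 1 and 46.6% wholly above. These 4 were named after their values were seen. They were TGM2, the growth factor gene HDGF, the ribosomal protein gene RPL34 and, higher, HSPG2, which encodes the basement membrane proteoglycan perlecan. HSPG2 had 7820 counts in the library labelled Ad-Bmal1 and 3616 in the library labelled Ad-GFP (ratio 2.21, 2.13 to 2.30). RPL34 had 4983 counts in the library labelled Ad-Bmal1 and 10536 in the library labelled Ad-GFP (ratio 0.484, 0.468 to 0.501), and processed copies elsewhere in the genome make its counts uncertain.

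**Figure D2:**
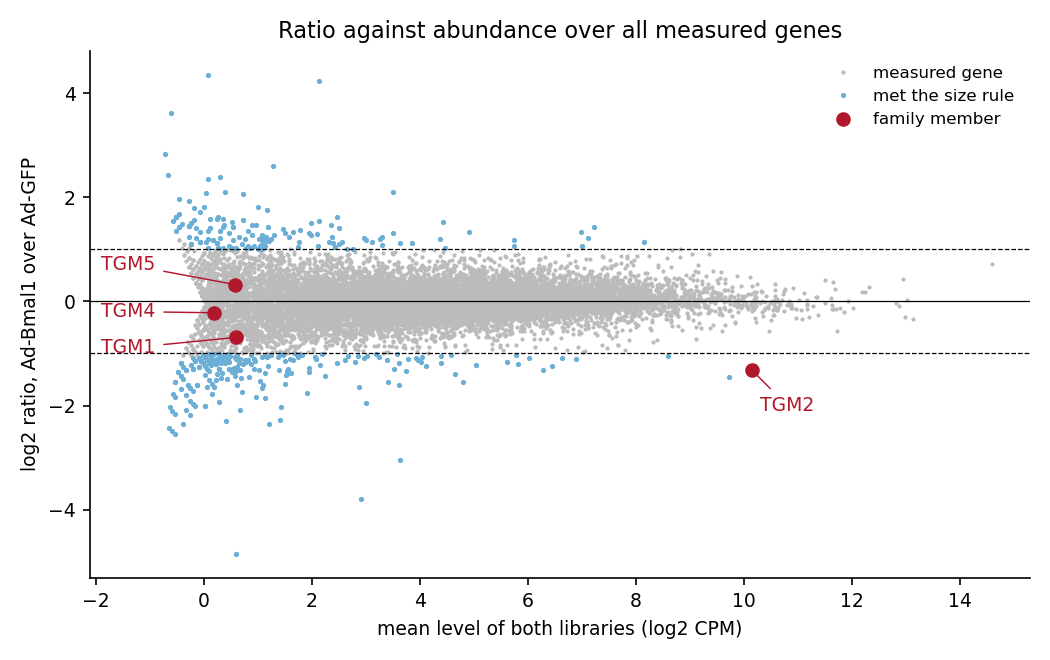
Log2 ratio, Ad-Bmal1 over Ad-GFP, against the mean log2 CPM of both libraries for 13231 measured genes (grey), those that met the size rule (blue) and the 4 measured family members (red); dashed lines mark 2-fold. TGM2 lies at -1.31 among very abundant genes, and TGM1, TGM4 and TGM5 lie between the dashed lines at the low end, where ratios of all genes spread widely.

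The genes whose levels in both libraries lay nearest to those of TGM2 were HDGF, VIM, HMGA1, SOD2 and ANXA2, at distances of 0.65, 0.69, 0.70, 0.71 and 0.76 on the log2 CPM scale over the 2 libraries. HDGF had 8953 counts in the library labelled Ad-Bmal1 and 25119 in the library labelled Ad-GFP (ratio 0.365, 0.356 to 0.374), and it was the one of the 5 that met the size rule. The other 4 had ratios from 0.754 for VIM, the intermediate filament vimentin, to 0.806 for the membrane-binding annexin ANXA2. They were near TGM2 in level rather than in ratio.

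Transcript length moved with the ratios across genes. Genes with 100 or more counts were split into 5 equal bins by length. The bin of longest transcripts had a median log2 ratio of 0.16 and the bin of shortest transcripts -0.08. Across 11217 genes, which share the same 2 libraries, Spearman's rho of length and log2 ratio was 0.28. TGM2, at 5070 bases, went against this trend. Of 2552 genes with 100 or more counts and a length between 4/5 and 5/4 of that of TGM2, 12 were lower by the size rule (0.47%) and 4 higher (0.157%). Their intervals lay wholly below 1 for 16.1% and wholly above for 32%, and their median log2 ratio was 0.06. With the trend on length removed, TGM2 had a ratio of 0.385 (0.378 to 0.393).

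**Figure D3:**
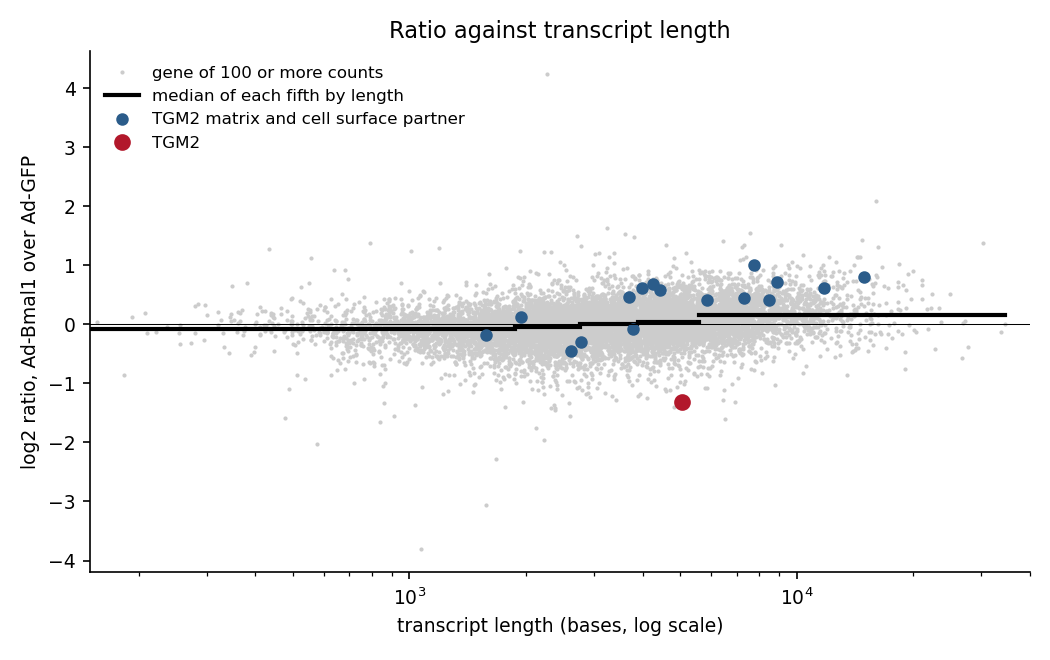
Log2 ratio, Ad-Bmal1 over Ad-GFP, against transcript length (bases, log scale) for genes with 100 or more counts (grey), with the median of each of 5 bins by length (black bars), the TGM2 matrix and cell surface partners (blue) and TGM2 (red). The medians run from -0.08 for the shortest transcripts to 0.16 for the longest, and TGM2 lies at -1.31, below them.

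Genes beside TGM2 on chromosome 20 were checked within 250 kb, where GENCODE places 6 other protein-coding genes. TTI1, a scaffold of the TOR and ATM kinases, had 1248 counts in the library labelled Ad-Bmal1 and 1097 in the library labelled Ad-GFP (ratio 1.16, 1.07 to 1.26). RPRD1B, an RNA polymerase II-binding protein gene, had 1121 counts in the library labelled Ad-Bmal1 and 1074 in the library labelled Ad-GFP (1.07, 0.981 to 1.16). KIAA1755 had 30 counts in the library labelled Ad-Bmal1 and 28 in the library labelled Ad-GFP (1.10, 0.633 to 1.90). None of these 3 measured neighbours was low in the library labelled Ad-Bmal1.

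The other neighbours were under 1 CPM. VSTM2L had 5 counts in the library labelled Ad-Bmal1 and 16 in the library labelled Ad-GFP (ratio 0.320, 0.0916 to 0.913). LBP, which binds bacterial lipopolysaccharide, had 2 counts in the library labelled Ad-Bmal1 and 0 in the library labelled Ad-GFP, and its relative BPI had 0 in both. RPRD1B overlaps the end of TGM2 by 394 bases on the opposite strand and shares 364 of the 5040 runs of 31 bases in the TGM2 transcript. The strand setting of the counting is not given in the sources used here, and reads there cannot be told apart. Taking every RPRD1B count away from TGM2 gave a ratio of 0.380 (0.372 to 0.388).

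Partners and substrates of TGM2 at the cell surface and in the matrix were mostly higher in the library labelled Ad-Bmal1, opposite to TGM2 itself, but by less than 2-fold. Of 19 listed genes 17 were measured and 0 met the size rule in either direction. Over all measured genes 1.13% were higher by the rule and 1.74% lower, so 0 in this list or those below says little. The intervals of 12 lay above 1 and those of 4 below, against 23.8% and 21.6% of all measured genes. An interval excludes 1 more readily at high counts, and several of these partners are very abundant. Among genes with 10000 or more counts over both libraries 46.6% lay above and 36% below. The list median log2 ratio was 0.44, against 0.00 over all measured genes. The median was 0.31 with the length trend removed, and 12 members still had ratios above 1.

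FN1, fibronectin, the matrix protein that TGM2 binds and crosslinks, had 614596 counts in the library labelled Ad-Bmal1 and 382264 in the library labelled Ad-GFP (1.65, 1.64 to 1.65). SPARC, a collagen-binding glycoprotein, had 17414 counts in the library labelled Ad-Bmal1 and 13001 in the library labelled Ad-GFP (ratio 1.37). SDC4, the heparan sulfate proteoglycan syndecan-4 that carries TGM2 at the surface, had 11515 counts in the library labelled Ad-Bmal1 and 16069 in the library labelled Ad-GFP (0.733, 0.716 to 0.751). SPP1, the substrate osteopontin, had a ratio of 0.878 (0.865 to 0.891).

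Members picked after their values were seen include the receptors of TGM2 and its complexes. THBS1, thrombospondin-1, had 10835 counts in the library labelled Ad-Bmal1 and 5558 in the library labelled Ad-GFP, a ratio of 1.99 (1.93 to 2.06) just under the 2-fold line. LRP1, the endocytic receptor that takes up TGM2, had 6321 counts in the library labelled Ad-Bmal1 and 3708 in the library labelled Ad-GFP (1.74, 1.67 to 1.82), and 1.47 with the length trend removed. ADGRG1, an adhesion receptor that binds TGM2, had a ratio of 1.60 (1.51 to 1.70). Of the 3 integrin subunit genes, ITGA5 had 8671 counts in the library labelled Ad-Bmal1 and 5929 in the library labelled Ad-GFP (interval of the ratio 1.45 to 1.55), and ITGB3 a ratio of 1.54 (1.46 to 1.61). ITGB1 was slightly lower (0.942, 0.913 to 0.972).

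Inside the cell, partners and substrates of TGM2 showed no common direction. Of 17 listed genes 16 were measured and 0 met the size rule. There were 5 intervals above 1 and 7 below, against 23.8% and 21.6% of all measured genes. Several of these partners too are very abundant. Among genes with 10000 or more counts over both libraries 46.6% lay above and 36% below. The list median was -0.06, and 0.01 with the length trend removed. CALR, the chaperone calreticulin, had 63626 counts in the library labelled Ad-Bmal1 and 62066 in the library labelled Ad-GFP (1.05, 1.04 to 1.06). VIM, a crosslinking substrate, had 15528 counts in the library labelled Ad-Bmal1 and 21084 in the library labelled Ad-GFP (0.754, 0.738 to 0.769). The small GTPase gene RHOA had a ratio of 0.985 (0.961 to 1.01), which was 1.03 with the length trend removed, and GAPDH, a gene with many processed copies among which reads may be split, 0.936 (0.929 to 0.943). ADRA1B, the adrenergic receptor through which TGM2 signals as a G protein, had 162 counts in the library labelled Ad-Bmal1 and 89 in the library labelled Ad-GFP (1.86, 1.43 to 2.44) and was named after its values were seen.

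**Figure D4:**
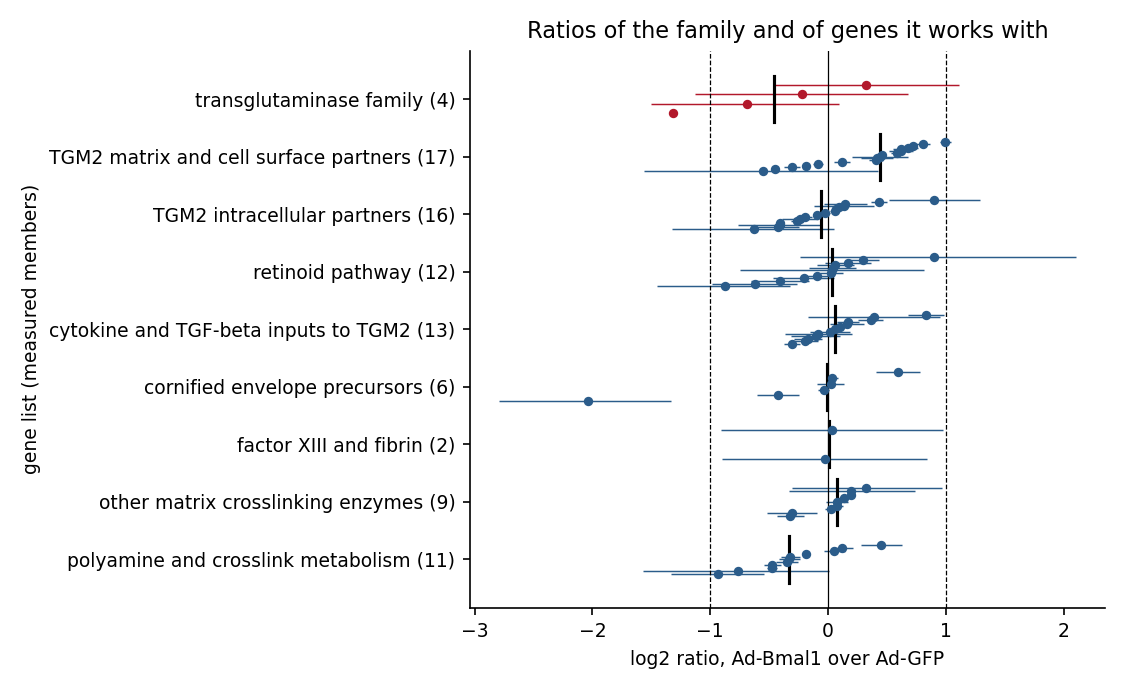
Log2 ratio, Ad-Bmal1 over Ad-GFP, of each measured gene (points) with its 95% counting interval (bars) for the transglutaminase family (red) and 8 lists of genes it works with (blue); black ticks are list medians and dashed lines mark 2-fold. The matrix and cell surface partners have a median of 0.44 and the polyamine genes one of -0.33, while TGM2 at -1.31 and PI3 at -2.03 lie beyond the 2-fold line. PI3 had only 21 counts in the library labelled Ad-Bmal1 and 88 in the library labelled Ad-GFP.

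Retinoic acid is a classical inducer of TGM2, acting through receptors that bind its promoter. Of 19 retinoid pathway genes 12 were measured and 0 met the size rule. There was 1 interval above 1 and 3 below, against 23.8% and 21.6% of all measured genes. The median log2 ratio was 0.03 (-0.01 under total counts). The receptor genes stayed near 1. RXRB had 1730 counts in the library labelled Ad-Bmal1 and 1737 in the library labelled Ad-GFP (1.02, 0.953 to 1.09, and 0.995 under total counts), and RARA had 688 in the library labelled Ad-Bmal1 and 675 in the library labelled Ad-GFP (1.04, 0.936 to 1.16). RXRA had a ratio of 0.939 (0.870 to 1.01). RDH10, which makes retinal for retinoic acid synthesis, had a ratio of 1.23 (1.12 to 1.35).

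The 3 retinoid genes with intervals wholly below 1 were DHRS3, STRA6 and PLAAT4, named after their values were seen. STRA6, the retinol uptake receptor, had 42 counts in the library labelled Ad-Bmal1 and 79 in the library labelled Ad-GFP (0.544, 0.365 to 0.801). PLAAT4, known as a retinoid-inducible gene, had 106 counts in the library labelled Ad-Bmal1 and 167 in the library labelled Ad-GFP (0.649, 0.504 to 0.833), and DHRS3, a retinal reductase, had a ratio of 0.755 (0.636 to 0.896). The receptor gene RARB, itself a retinoic acid target, had 0 counts in both libraries.

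Cytokine and TGF-beta signals also act on TGM2 transcription. Of 14 listed genes 13 were measured and 0 met the size rule. There were 5 intervals above 1 and 3 below, against 23.8% and 21.6% of all measured genes. The median was 0.06, and -0.01 with the length trend removed. IL6, an inflammatory cytokine, had 5056 counts in the library labelled Ad-Bmal1 and 4979 in the library labelled Ad-GFP (1.04, 0.999 to 1.08). RELA, the NF-kB subunit p65, had a ratio of 1.12 (1.05 to 1.20) and SMAD3, the TGF-beta signal transducer, 1.07 (1.03 to 1.11), or 0.991 with the length trend removed. The TGF-beta ligands went opposite ways. TGFB1 had 3153 counts in the library labelled Ad-Bmal1 and 3989 in the library labelled Ad-GFP (0.809, 0.772 to 0.848), and TGFB2, named after its values were seen, had 979 in the library labelled Ad-Bmal1 and 562 in the library labelled Ad-GFP (1.78, 1.61 to 1.98).

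Among other enzymes that crosslink the matrix, all 9 listed genes were measured and 0 met the size rule. There were 3 intervals above 1 and 2 below, against 23.8% and 21.6% of all measured genes, and the median was 0.08. LOXL2, a lysyl oxidase that acts on collagen, had 36466 counts in the library labelled Ad-Bmal1 and 32600 in the library labelled Ad-GFP (1.14, 1.13 to 1.16). Per transcript length LOXL2 stood at 1102 TPM in the library labelled Ad-Bmal1 and 946 TPM in the library labelled Ad-GFP, above TGM2 in each. PXDN, which forms sulfilimine bonds in collagen IV, had a ratio of 1.05 (1.02 to 1.09), but 0.963 with the length trend removed. The lysyl hydroxylase gene PLOD1 had a ratio of 1.02 (0.982 to 1.06), which was 0.996 under total counts, and PLOD3 one of 1.10 (1.05 to 1.15).

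Polyamines are amine donors for transglutaminases, and GGACT breaks down what is left of the crosslink after proteolysis. All 11 listed genes were measured and 0 met the size rule, but 7 intervals lay below 1 and 2 above, against 21.6% and 23.8% of all genes. These shares rise with depth: among genes with 10000 or more counts over both libraries 36% lay below and 46.6% above. The median log2 ratio was -0.33, and -0.26 with the length trend removed. OAZ1, the antizyme that targets ornithine decarboxylase for destruction, had 13182 counts in the library labelled Ad-Bmal1 and 15341 in the library labelled Ad-GFP (0.879, 0.859 to 0.900). SMS, spermine synthase, had 7296 counts in the library labelled Ad-Bmal1 and 10389 in the library labelled Ad-GFP (0.719, 0.697 to 0.740). SAT1, the acetyltransferase that starts polyamine breakdown, had 2644 counts in the library labelled Ad-Bmal1 and 3761 in the library labelled Ad-GFP (0.719, 0.684 to 0.756).

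Of the 11 genes 8 had ratios below 1 and 3 above. The spermine oxidase SMOX had a ratio of 0.801 (0.758 to 0.847). PAOX, a polyamine oxidase, had 84 counts in the library labelled Ad-Bmal1 and 164 in the library labelled Ad-GFP (0.524, 0.398 to 0.686). GGACT itself had 23 counts in the library labelled Ad-Bmal1 and 40 in the library labelled Ad-GFP (0.588), with an interval of 0.336 to 1.01 that held 1. The 3 genes above 1 were AMD1, which makes the aminopropyl donor of polyamine synthesis, with a ratio of 1.37 (1.21 to 1.54), the antizyme inhibitor AZIN1 with 1.09 (1.02 to 1.16), and ODC1, ornithine decarboxylase itself, with 1.04 (0.976 to 1.10). PAOX, GGACT, AMD1, AZIN1 and ODC1 were named after their values were seen.

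The substrates of the skin enzymes were largely missing. Of 18 cornified envelope precursors 6 were measured and 7 had no count, including IVL and LORICRIN, the major envelope proteins involucrin and loricrin. PI3, the elastase inhibitor elafin, was the one that met the size rule, against 1.74% of all measured genes lower. It had 21 counts in the library labelled Ad-Bmal1 and 88 in the library labelled Ad-GFP (0.244, 0.144 to 0.397). At 1.06 CPM in the library labelled Ad-Bmal1 and 4.34 CPM in the library labelled Ad-GFP, PI3 falls below a filter of 10 CPM. The list median was -0.01, with 1 interval wholly above 1 and 2 below, against 23.8% and 21.6% of all measured genes. The interval above was that of the desmosome gene DSP, named after its values were seen, with 568 counts in the library labelled Ad-Bmal1 and 385 in the library labelled Ad-GFP (1.51, 1.32 to 1.72). S100A10 had a ratio of 1.02 (0.986 to 1.06), or 0.998 under total counts, S100A11 0.973, or 1.01 with the length trend removed, and the linker EVPL 1.01 (0.938 to 1.10), or 0.990 under total counts and 0.931 with the length trend removed. ANXA1, which is also a TGM2 substrate, had 456 counts in the library labelled Ad-Bmal1 and 626 in the library labelled Ad-GFP (0.745, 0.659 to 0.842).

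The partner and substrates of factor XIII were at trace level, beside F13A1 at 0. Of 8 listed genes 2 were measured and 0 met the size rule, against 1.13% of all measured genes higher and 1.74% lower. FGB, the fibrinogen beta chain, had 21 counts in each library (1.02, 0.532 to 1.97, and 0.999 under total counts). SERPINF2, the plasmin inhibitor that factor XIII ties to fibrin, had 24 counts in the library labelled Ad-Bmal1 and 25 in the library labelled Ad-GFP (0.982, 0.537 to 1.79), or a ratio of 1.02 with the length trend removed. F13B, the carrier subunit, had 2 counts in the library labelled Ad-Bmal1 and 0 in the library labelled Ad-GFP.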

How the data were processed

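RNA of 2 libraries was sequenced on both ends, per the labels' protocols. Each file deposited by the authors gives whole-number counts per gene, with no normalisation visible in the values. The submitters' processing notes name HISAT2 and GRCh38. What counted the reads, with which strand setting and annotation, is not given in the sources used here. The number of unused columns was 0.

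Groups were taken from the titles. TMM factors from edgeR 4.0.16 (R 4.3.3) scaled the counts, with values of 0.988 for the library labelled Ad-Bmal1 and 1.01 for the library labelled Ad-GFP, so that 1 CPM was worth 19.8 counts in the library labelled Ad-Bmal1 and 20.3 in the library labelled Ad-GFP. A quasi-likelihood test needs replicates, so none was run, and no p-values are given. Ratios have exact 95% conditional binomial (Clopper-Pearson) intervals and levels exact Poisson intervals. A ratio against 0 counts was set at a floor of 3. The steps were tested on simulated counts. Other steps used Python 3.11.15, numpy 2.4.6, pandas 2.3.3, scipy 1.17.1, statsmodels 0.14.6 and biopython 1.88.

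Symbols came from the reference name table or, failing that, GENCODE v29, which held 99.5% of the identifiers and gave coordinates and lengths. The members, the 10 gene lists and the 7 marker lists were chosen with earlier results of these data known. The result of 1 marker list is not reported here. Genes named by rule are the members, EPB42, BMAL1, list genes that met the size rule or were among the 4 most abundant others, the 5 genes nearest TGM2 in level, and coding genes within 250 kb. Further genes were named outside this rule, many of them marked as named after their values were seen. The trend on length was a lowess fit (fraction 0.4) over genes with 20 or more counts. The reference tables of sequences gave no protein for these genes.

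The alternatives tried were scaling by total counts, by size factors of DESeq2 1.42.0, by upper quartiles and by totals that leave out mitochondrial genes and the 20 genes of highest count. Others were removal of the length trend, thinning the deeper library, no filter, a filter of 10 CPM, and sizes of 1.5-fold and 4-fold. Removal of RPRD1B counts and merged exon lengths were added after seeing the data.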

Additional observations from a re-analysis of the deposited data

How the results depend on the processing

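No paired analysis was possible because each group has 1 library, and for the same reason no library could be left out. TGM2 stayed lower in the library labelled Ad-Bmal1 under every scaling tried, with ratios from 0.385 to 0.402. The ratio left its counting interval under total counts (0.393) and with the length trend removed (0.385), and also after taking away RPRD1B counts (0.380). TGM2 was the 1 member called lower under each alternative except the 4-fold size, where 0 were, and 0 members were called higher under any. As background with no filter, 382 of 22827 genes with a count were lower in the library labelled Ad-Bmal1 and 292 higher. At 10 CPM 38 were lower and 21 higher, of a smaller set of genes whose number is not given here. Of the 13231 measured genes 648 were lower and 583 higher at 1.5-fold, and 20 and 12 at 4-fold. Under the other scalings, removal of the length trend and thinning, 223 to 263 genes were lower and 129 to 149 higher. Of 342 ratios of other named genes under the alternatives, 43 left their counting interval, 24 of them with the length trend removed. TGM2 kept 98.8% of the family's TPM in the library labelled Ad-Bmal1 and 99.5% in the library labelled Ad-GFP with merged exon lengths. Depth limits TGM1, TGM4 and TGM5, whose 21 to 38 counts leave intervals that hold 1, and all 3 fall below a filter of 10 CPM.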

Other observations

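Some liver-type plasma protein genes among the partners and substrates lay below 1 CPM in both libraries and still differed in counts. They were picked after their values were seen. FGA, the fibrinogen alpha chain and the main fibrin substrate of factor XIII, had 18 counts in the library labelled Ad-Bmal1 and 2 in the library labelled Ad-GFP (ratio 9.21, 2.20 to 81.8). FGG, the gamma chain, had 10 counts in the library labelled Ad-Bmal1 and 0 in the library labelled Ad-GFP. VTN, the adhesive plasma protein vitronectin, had 15 counts in the library labelled Ad-Bmal1 and 2 in the library labelled Ad-GFP (ratio 7.67, 1.78 to 69.2). FGB had 21 counts in each library, so the 3 fibrinogen chains did not move together. At these counts the size of each difference is poorly known.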
